A study of Rattus norvegicus with 4 samples.

Results

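The genes described here are 32 markers of macrophages and other leukocytes, the white blood cells, read in the soleus, a slow hindlimb muscle, with its nerve intact or cut, in rats that ate genistein or none. They were taken as every probe set, a group of short probes for 1 transcript, that the platform annotation pairs with exactly 1 of the 32 listed gene symbols. Of these, 30 genes were found through 34 of the 31042 probe sets that are not controls, and these 30 genes stand among 14217 genes with a symbol on the array. Spi1 and Msr1 had no probe set paired with their symbol alone and were not analysed. A signal floor of 78.9 units, the 40th percentile of all signals, marked the level below which a reading was not used as such, and 26 genes lay above it on all 4 arrays, Itgam and Myo1f on some of them, and Cd37 and Vav1 on none.

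All animals were male Wistar rats, 10 weeks old when the diets began and 14 weeks old per the sample labels. The control groups ate a modified AIN-93G diet with corn oil in place of soybean oil. The genistein groups ate AIN-93G with 0.5 g of genistein per kg of diet (0.05%), and whether its oil was also exchanged is not stated. Genistein is a soy isoflavone that binds oestrogen receptors. After 14 of 24 days on the diet the left sciatic nerve was excised and the right leg had sham surgery, and soleus was collected 10 days later. Total RNA of 8 rats was pooled for each of 4 groups, sham and denervated muscle on either diet, and each pool was hybridised to 1 Affymetrix rat array, so no group had a replicate, no value has an error of its own and no test was made. Within a diet both pools came from the same animals, the right legs giving the sham and the left legs the denervated pool.

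The treatment-group field of 2 samples, control diet denervated and genistein diet sham, contradicted their titles, and groups were taken from the titles. Nerve-responsive muscle genes separated the arrays as the titles have it, with Chrna1, the acetylcholine receptor alpha subunit, at 1859.7 and 1589.4 units on the control and genistein sham arrays and at 20549.7 and 16185.7 on the denervated arrays. Chrng read 26.0 and 28.0 units on the sham and 881.4 and 1045.9 on the denervated arrays, and Myog read 3029.9 and 2372.7 against 10677.8 and 10099.2. These genes check the operation and not the diet label. Each array had a trimmed mean signal of 500.2 units, and between 58.5% and 60.8% of its probe sets lay above the floor. The ratio of 3' to 5' signal of the actin control probes, which climbs as RNA is degraded or copied incompletely, was 2.08, 3.79, 2.32 and 2.76 on the control sham, control denervated, genistein sham and genistein denervated arrays, and its part in the results below was not tested. The same ratio for Gapdh was between 1.13 and 1.24. As a yardstick for scatter, probe sets of a same gene differed from their mean log2 ratio with an SD of 0.36 and 0.37 for denervation ratios on the control and genistein diets, and of 0.27 and 0.25 for diet ratios in sham and denervated muscle. That SD leaves out the scatter between pools of animals.

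Skeletal muscle holds a resident population of macrophages between its fibres and along its vessels and nerve branches, kept alive by signalling through the receptor Csf1r. These cells engulf debris through scavenger, lectin and Fc receptors, break it down in lysosomes, make complement C1q and present antigen, and circulating monocytes join them after injury. PU.1, the transcription factor that the Spi1 gene encodes, directs myeloid development and acts at many genes of these cells.

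With the deposited scaling, denervated soleus on the control diet read lowest of the 4 arrays for 26 of the 28 markers above the floor somewhere. This array read lowest for 22.4% of 11151 genes. On the control diet the denervated muscle was lower than sham for 26 of 27 measured markers (20 of 27 with the spike-in scaling described below), with a median log2 ratio of -0.71 against 0.00 over all 10755 measured genes. With spike-in scaling Ptprc, Cd48, Mrc1, Tyrobp, Cd74 and Myo1f read above control sham, so the control denervated array was not their lowest. On the genistein diet the median was 0.01, with 14 markers above and 14 below 0 (26 above and 1 below with spike-in scaling). The genistein array was thus higher than the control array in denervated muscle for 27 of 27 markers, by a median log2 ratio of 0.87, and the diets differed by a median of 0.06 in sham muscle. In whole tissue, fewer cells of a type and less RNA per cell cannot be told apart.

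**Figure D1:**
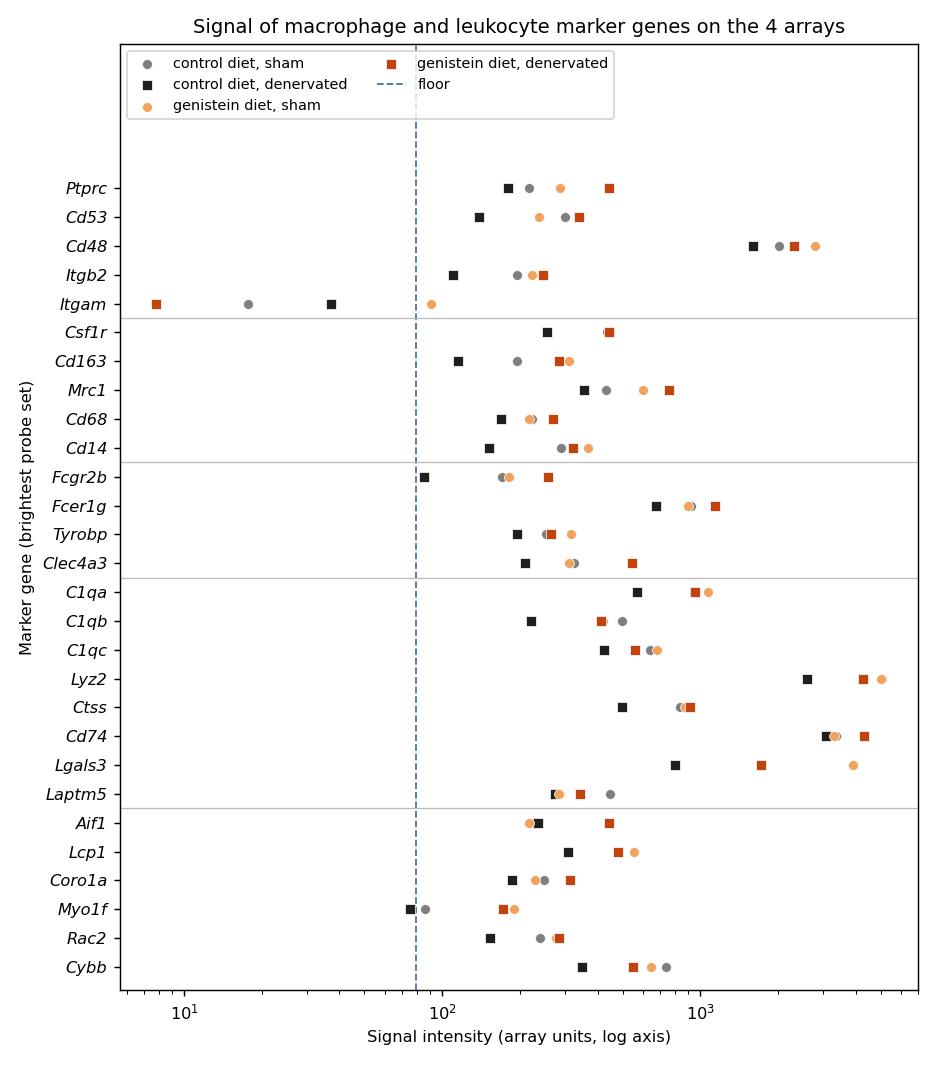
Signal of each marker gene above the floor on at least 1 array (28 genes, each by its brightest probe set) on a log axis in array units, 1 point per array; grey lines part the functional groups and the dashed line is the floor of 78.9 units. The black squares, control diet denervated, lie farthest left for 26 genes with the deposited scaling shown.

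Sequence before the start of transcription was examined for the PU.1 core. RefSeq windows of the GRCr8 rat assembly, from 250 bases before to 50 bases after the start, matched 21 of the 32 markers by symbol. The letters GAGGAA or their reverse complement TTCCTC stood in 17 of these 21 windows (81.0%) and in 27.6% of all 33469 windows, or 26.3% of the 10472 windows of measured genes. The 250 upstream bases of 4 markers past 2-fold between the diets in denervated muscle are shown because they differ in this motif, a choice made after their values were seen, with each match in capitals and each window written 5' to 3' along the gene's own strand.

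Ptprc: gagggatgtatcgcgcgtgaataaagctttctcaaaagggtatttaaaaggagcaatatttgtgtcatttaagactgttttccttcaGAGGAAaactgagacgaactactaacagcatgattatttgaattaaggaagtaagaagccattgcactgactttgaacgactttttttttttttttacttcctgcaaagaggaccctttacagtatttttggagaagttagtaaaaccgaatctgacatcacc

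Cd53: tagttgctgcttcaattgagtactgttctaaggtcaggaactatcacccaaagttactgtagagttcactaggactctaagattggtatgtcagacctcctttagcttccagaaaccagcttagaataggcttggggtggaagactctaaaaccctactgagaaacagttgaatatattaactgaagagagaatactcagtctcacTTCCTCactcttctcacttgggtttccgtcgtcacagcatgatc

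Mrc1: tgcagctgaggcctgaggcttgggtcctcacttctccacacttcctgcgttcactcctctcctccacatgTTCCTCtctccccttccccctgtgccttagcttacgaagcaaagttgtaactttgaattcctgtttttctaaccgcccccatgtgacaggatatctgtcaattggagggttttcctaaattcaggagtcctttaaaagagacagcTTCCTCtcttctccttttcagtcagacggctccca

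Cd163: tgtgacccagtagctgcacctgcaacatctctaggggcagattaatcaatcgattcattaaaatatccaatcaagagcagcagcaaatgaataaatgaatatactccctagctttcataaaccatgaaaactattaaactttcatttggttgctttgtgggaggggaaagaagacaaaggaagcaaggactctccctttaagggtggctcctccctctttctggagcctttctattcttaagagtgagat

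The Ptprc window (chr13:52259747-52259996, minus strand) held the core in the sense direction, and the Cd53 window (chr2:197087897-197088146, minus strand) held it in the reverse direction close to the start. In the Mrc1 window (chr17:82157475-82157724, plus strand) the core stood at 2 places, both in the reverse direction. The Cd163 window (chr4:158770524-158770773, plus strand) held none. With the 50 bases after the start included, Cd163, C1qa, Cd48 and Coro1a held none, while Myo1f held the core only in those 50 bases. The longer motif GAGGAAGT, which contains the core, was found in Cd37, Cd53, Ctss and Vav1, 4 of 21 windows (19.0%), and in 2.42% of all windows. A match is a description of the letters and not a measured binding site.

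Signals below are given with sham before denervated muscle for each diet. Among surface proteins shared by all or many leukocytes, Ptprc, Cd53 and Itgb2 were more than 2-fold higher on genistein than on control diet in denervated muscle. Ptprc, the phosphatase CD45 that sets the threshold of antigen receptor signalling, read 216.4 units in sham and 180.2 units in denervated muscle of control rats, and 286.7 and 444.0 on genistein. The genistein denervated array was thus highest, 2.46-fold above control denervated and 1.55-fold above genistein sham. Cd53, a tetraspanin of leukocyte membranes, read 299.4 and 139.4 units on the control diet and 236.3 and 337.6 on genistein. Its signal was therefore 2.15-fold lower with denervation on the control diet and 1.43-fold higher on genistein, and the denervated arrays differed 2.42-fold between the diets. Itgb2, the beta chain shared by leukocyte integrins, read 194.9 and 109.9 units on the control diet against 223.0 and 246.5 on genistein, with the control denervated array alone standing low and a diet ratio of 2.24-fold in denervated muscle.

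Cd48, a ligand of the SLAM family on lymphoid and myeloid cells, differed from Ptprc, Cd53 and Itgb2 in its denervation ratios. It read 2013.6 and 1593.6 units on the control diet and 2789.7 and 2308.6 on genistein. Both genistein arrays were above both control arrays, as for Ptprc and Itgb2, but denervation gave nearly the same log2 ratio on the 2 diets, -0.34 and -0.27. Itgam, the alpha chain CD11b that pairs with Itgb2, exceeded the floor only on the genistein sham array, at 90.4 units against 17.7, 37.1 and 7.8 on the control sham, control denervated and genistein denervated arrays. Cd37, a tetraspanin mainly of B cells, read between 1.5 and 13.9 units and gave no ratio.

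The macrophage surface receptors had a median log2 ratio of -0.76 for denervation on the control diet, -0.02 for denervation on genistein, 0.35 for the diet in sham and 1.08 for the diet in denervated muscle (5 measured of 6 listed). Csf1r, the receptor for the growth factors on which tissue macrophages depend, read 434.8 units (sham) and 253.7 units (denervated) on the control diet, and 447.8 and 442.2 on genistein. Only the control denervated array stood apart, 1.71-fold below its sham and 1.74-fold below the genistein denervated array. Cd163, the scavenger receptor for haptoglobin-bound haemoglobin, read 195.2 and 115.0 units on the control diet against 308.7 and 284.7 on genistein. Both genistein arrays were above both control arrays, by 1.58-fold in sham and 2.48-fold in denervated muscle.

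Mrc1, the mannose receptor CD206 of resident-type macrophages, was likewise higher on both genistein arrays, at 431.0 and 353.0 units on the control diet and 602.4 and 759.3 on genistein, and its diet ratio in denervated muscle was 2.15-fold. Cd14, the co-receptor for bacterial lipopolysaccharide, read 289.0 and 151.9 units on the control diet and 368.6 and 322.2 on genistein. Its denervated arrays differed 2.12-fold between the diets. Cd68, a lysosomal membrane protein abundant in phagocytes, had a narrower range, at 222.9 and 169.3 units on the control diet and 216.0 and 267.6 on genistein, and a diet ratio of 1.58-fold in denervated muscle.

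Among Fc receptors, the lectin receptor and their adaptors, Fcgr2b and Clec4a3 had the 2 largest diet ratios in denervated muscle of all 27 measured markers. Fcgr2b, the inhibitory receptor for immunoglobulin G, read 170.4 units (sham) and 85.1 units (denervated) on the control diet, close to the floor, and 182.3 and 256.2 on genistein. The diet ratio in denervated muscle was 3.01-fold, with 1.07-fold in sham muscle. Clec4a3, a C-type lectin receptor of myeloid cells, read 324.5 and 209.1 units on the control diet and 309.0 and 542.7 on genistein, so that the sham arrays were close to each other and the denervated arrays lay on either side of them, 2.59-fold apart.

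Fcer1g and Tyrobp encode the signalling adaptors that carry the activating motif for Fc receptors and for other myeloid receptors. Fcer1g read 918.6 and 673.6 units on the control diet and 895.7 and 1141.0 on genistein, with a diet ratio of 1.69-fold in denervated muscle. Tyrobp differed less, at 252.2 and 195.4 units on the control diet against 315.4 and 264.6 on genistein, where denervation gave log2 ratios of -0.37 and -0.25.

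Markers of complement, the lysosome and antigen handling gave a median log2 ratio of -0.74 for denervation on the control diet and of 0.74 for the diet in denervated muscle (8 of 8 measured). The C1q chains, which join to form the recognition unit of the classical complement pathway, were all lowest on the control denervated array. C1qa read 948.2 and 570.3 units on the control diet and 1073.1 and 954.4 on genistein, and C1qb read 498.0 and 220.5 against 420.5 and 411.1. C1qb was 2.26-fold lower with denervation on the control diet, while on genistein its log2 ratio was -0.03. C1qc differed least of the chains in denervated muscle, at 637.2 and 422.4 units on the control diet and 680.1 and 558.1 on genistein, a diet ratio of 1.32-fold.

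Lyz2, the lysozyme of phagocytes, read 5066.9 units (sham) and 2587.0 units (denervated) on the control diet, and 5006.9 and 4287.5 on genistein. Ctss, the cathepsin that trims the class II invariant chain, read 832.7 and 498.6 units on the control diet and 874.4 and 912.5 on genistein. For both, the sham arrays agreed within 1.05-fold and the control denervated array was low, giving diet ratios of 1.66-fold and 1.83-fold in denervated muscle. Cd74, the invariant chain itself, varied less, at 3367.2 and 3077.8 units on the control diet and 3288.4 and 4300.9 on genistein, where the genistein denervated array was 1.40-fold above its control.

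Lgals3 was the marker with the lowest denervation ratio on both diets. It encodes galectin-3, a sugar-binding protein of macrophages that other cells also make. Its signal was 3893.8 units (sham) and 795.1 units (denervated) on the control diet, 4.90-fold lower, and 3891.6 and 1720.6 on genistein, 2.26-fold lower. The log2 ratio between the sham arrays was 0.00, and the denervated arrays differed 2.16-fold between the diets. Laptm5, a lysosomal membrane protein of blood-forming cells, read 445.2 and 273.1 units on the control diet against 284.0 and 342.8 on genistein, with log2 ratios of -0.65 in sham and 0.33 in denervated muscle between the diets, so that the 2 diet ratios had opposite signs.

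Among genes of the cytoskeleton, signalling and the oxidase, Aif1 was the only measured marker not lower with denervation on the control diet, and it too was lower when its probe sets were averaged. Aif1, the actin-bundling protein IBA1 used to stain macrophages and microglia, read 225.1 and 234.3 units on the control diet and 217.9 and 444.7 on genistein. Its genistein denervated array stood alone, 2.04-fold above its sham. Coro1a, a coronin that regulates actin in leukocytes, read 248.9 and 185.6 units on the control diet and 227.9 and 311.7 on genistein, with denervation ratios of opposite sign, -0.42 and 0.45 on the log2 scale. Lcp1, the actin-bundling L-plastin, read 553.0 on both sham arrays, 307.6 on control denervated and 481.7 on genistein denervated, and the diet ratio in denervated muscle was 1.57-fold.

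Rac2, the GTPase of blood cells that activates the phagocyte oxidase, read 239.6 and 153.0 units on the control diet and 276.2 and 283.1 on genistein, a diet ratio of 1.85-fold in denervated muscle. Cybb, the catalytic subunit of that oxidase, read 739.7 and 348.6 units on the control diet and 642.7 and 550.5 on genistein. The signal was 2.12-fold lower with denervation on the control diet and 1.17-fold lower on genistein. Myo1f, a motor protein of leukocytes, read 85.6 and 75 units on the control diet, around the floor, and 190.0 and 171.6 on genistein. Both genistein arrays were higher, 2.22-fold in sham and at least 2.17-fold in denervated muscle, and denervation gave log2 ratios of -0.12, a bound, and -0.15. Vav1, an exchange factor for Rac proteins, read between 32 and 65.8 units, below the floor on each array.

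**Figure D2:**
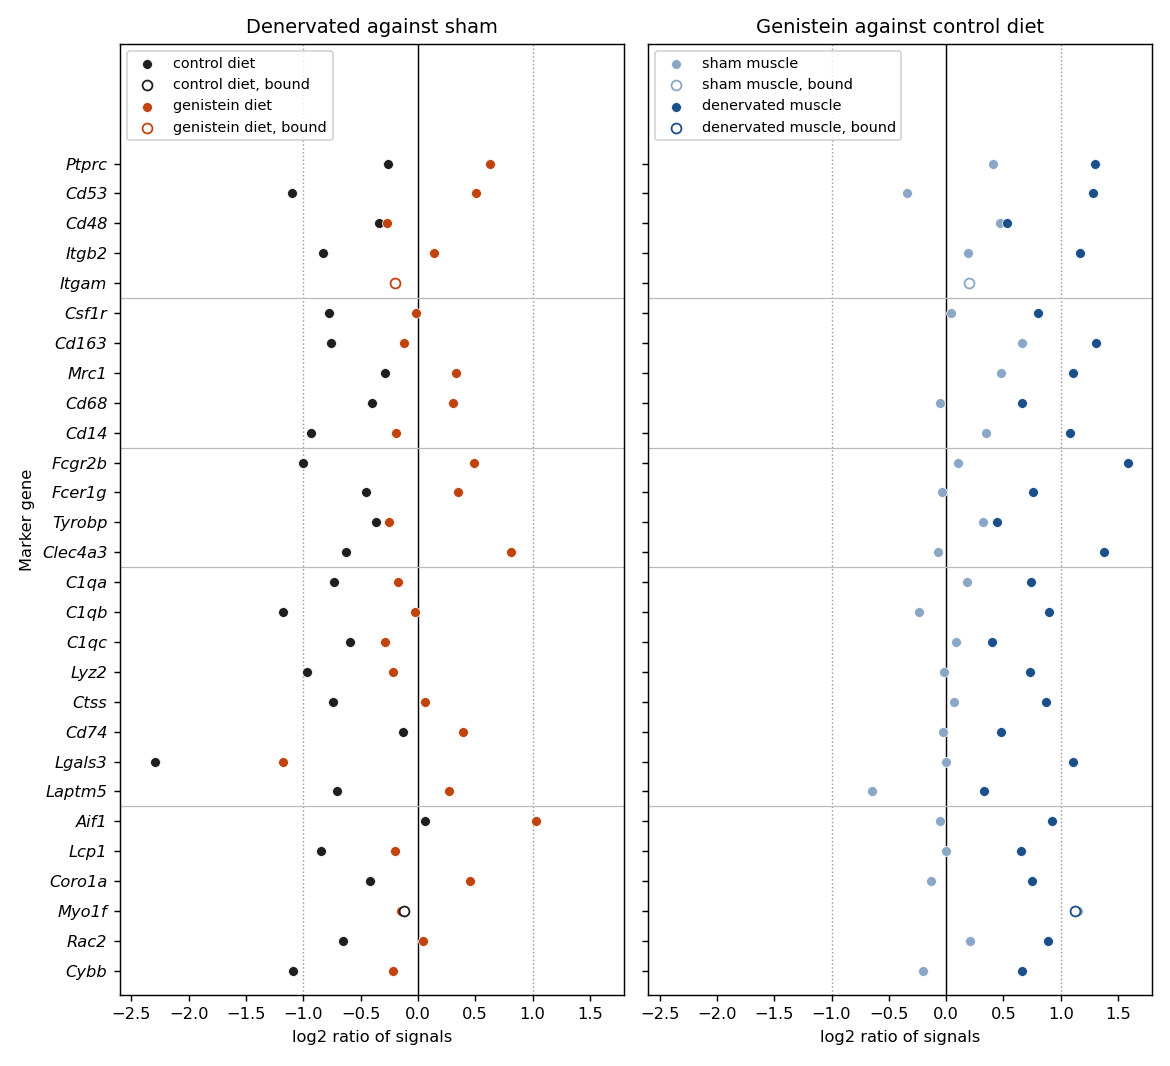
Log2 ratios of the 28 marker genes above the floor somewhere, denervated over sham on each diet (left) and genistein over control diet in each muscle (right), 1 point per gene and comparison; open points are bounds with 1 side at the floor, and dotted lines mark 2-fold. On the left the black points lie below 0 for 26 of 27 genes (20 with spike-in scaling), and on the right the dark blue points all lie above 0.

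Median diet log2 ratios in denervated muscle ran from 0.74 in complement, lysosome and antigen handling (8 genes) and 0.82 in cytoskeleton, signalling and oxidase (6) to 1.07 in Fc receptors, lectin and adaptors (4), 1.08 in macrophage receptors (5) and 1.22 in leukocyte surface proteins (4). For denervation on the control diet the same medians ran from -0.76 to -0.54. Within a group the values could differ as much as between groups, as leukocyte surface proteins spanned 0.53 for Cd48 to 1.30 for Ptprc.

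Markers past 2-fold between the diets in denervated muscle made up a smaller share of the brighter ones. All 3 markers with a mean signal of 78.9 to 200 units (Itgb2, Fcgr2b and Myo1f) were at least 2-fold higher on genistein, against 2.09% of all genes in that range. The counts were 5 of 14 markers against 1.45% of genes from 200 to 500 units, and 2 of 10 against 0.333% above 500 units, those 2 being Mrc1 and Lgals3.

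Another probe set was present for Ptprc, Laptm5, Aif1 and Cybb. The second Ptprc probe set was dim and read 93.6, 84.9, 133.0 and 106.4 units on the control sham, control denervated, genistein sham and genistein denervated arrays. It gave a denervation log2 ratio of -0.32 on genistein where the brighter one gave 0.63, and a diet ratio of 0.33 in denervated muscle where the brighter one gave 1.30. The second Aif1 probe set read 129.7, 95.3, 58.0 and 85.2 in the same order, and its diet log2 ratio in denervated muscle, -0.16, had the opposite sign to the 0.92 of the brighter one. For Laptm5 the second probe set read 181.8, 53.7, 167.0 and 202.8, a diet ratio of at least 2.57-fold in denervated muscle against 1.26-fold. The second Cybb probe set read 114.6, 34.9, 86.0 and 174.6, at least 2.21-fold higher on genistein in denervated muscle, and its denervation log2 ratio on genistein, 1.02, was opposite in sign to the -0.22 of the brighter one. The values of all 4 genes thus depend on the probe set.

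Counted by size, 5 of 27 markers were at least 2-fold lower with denervation on the control diet (Cd53, Fcgr2b, C1qb, Lgals3 and Cybb), against 7.63% of 10755 genes, and 0 were 2-fold higher, against 5.04%. Lower by any amount were 26 markers, with 50.2% of genes. Lower by more than the SD between probe sets were 21 markers, with 26.9% of genes. On the genistein diet Aif1 alone was 2-fold higher, against 4.96% of 10810 genes, and Lgals3 alone 2-fold lower, against 6.57%, and 14 of 28 markers lay above 0, as did 51.7% of genes. These shares of the markers are close to those of all genes.

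In sham muscle the diet difference was small. Myo1f alone of 28 markers was 2-fold higher on genistein, against 0.324% of 10819 genes, and 0 were 2-fold lower, against 0.287%. There were 15 markers above 0, with 50.5% of genes, and 7 higher by more than the SD between probe sets, with 14.3% of genes. In denervated muscle 10 of 27 markers were at least 2-fold higher on genistein (Ptprc, Cd53, Itgb2, Cd163, Mrc1, Cd14, Fcgr2b, Clec4a3, Lgals3 and, as a bound, Myo1f), against 1.02% of 10479 genes, and 0 were 2-fold lower, against 0.124%. By their brightest probe sets all 27 lay above 0, with 50.0% of genes. All 27 were also higher by more than the SD of 0.25 between probe sets, with 20.6% of genes. That SD was 0.36 for genes of 78.9 to 200 units. The other probe sets gave -0.16 for Aif1, 0.33 for Ptprc and, as bounds, 1.36 for Laptm5 and 1.15 for Cybb. Among the brightest probe sets the lowest ratio was 0.33, for Laptm5, and the highest 1.59, for Fcgr2b. The markers were chosen with earlier results of these data known. The shares set beside all genes therefore describe this list and are not independent evidence.

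**Figure D3:**
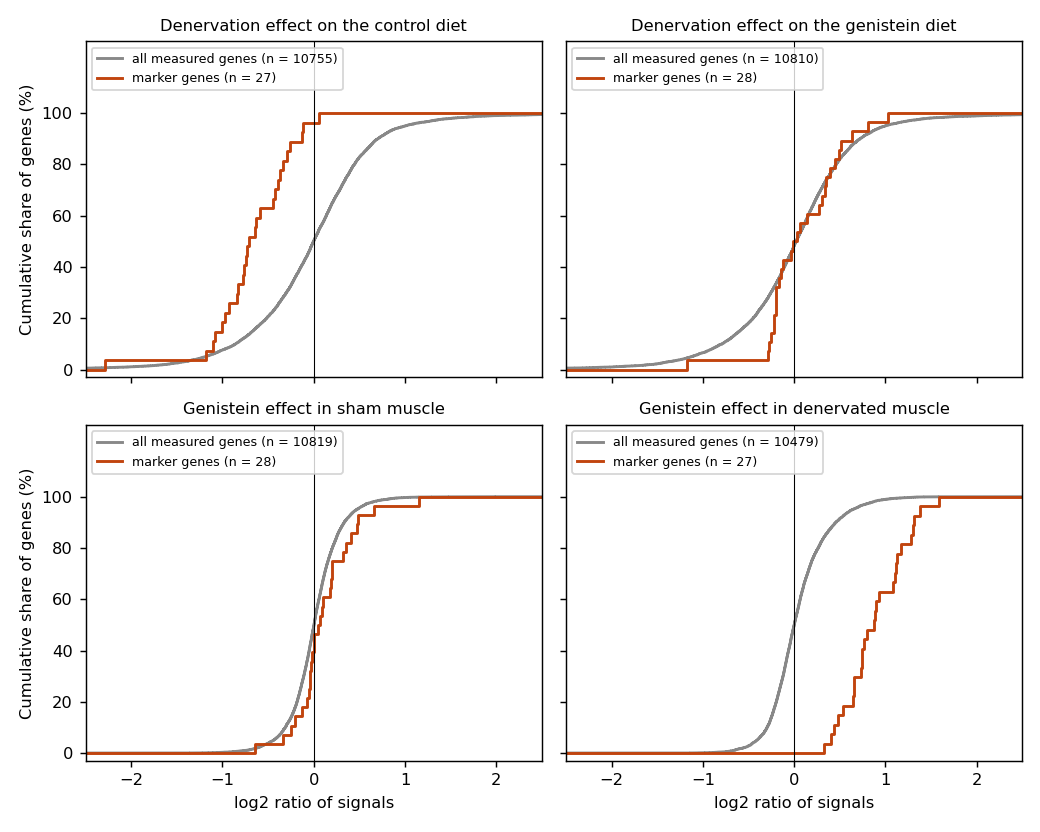
Cumulative share of genes, in percent, at or below each log2 ratio for all measured genes (grey) and the marker genes (orange) in the 4 comparisons. The orange curve lies left of the grey one for denervation on the control diet (medians -0.71 and 0.00), follows it near the middle for denervation on genistein (0.01 and 0.02), and lies right of it for the diet in denervated muscle (0.87 and 0.00).

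Subtracting the control-diet denervation ratio from the genistein one gave a value above 0 for 26 of 27 markers, with 49.6% of 10414 genes, and a median of 0.76. This difference was at least 2-fold for 5 markers, against 2.00% of genes, namely Cd53, C1qb, Fcgr2b, Clec4a3 and Lgals3. Myo1f was the exception, at -0.03. The genistein denervated array read highest of the 4 for 13 of 28 markers, with 25.7% of genes. The control denervated array enters both the control-diet denervation ratio and the diet ratio in denervated muscle, with opposite sign, so these comparisons are not independent of each other, and a low reading of that 1 array moves both.

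Scaling bears on the denervation effects. When arrays were scaled to their spike-in controls, RNAs added in known amounts, all genes moved up by a median of 0.37 with denervation on the control diet and 0.48 on genistein, and the marker medians became -0.32 and 0.51. Relative to all genes the marker medians were then -0.69 and 0.03, against -0.70 and -0.01 with the deposited scaling. The small median on genistein changed sign under scaling to the array median (-0.02) and quantile normalization (-0.08). In denervated muscle the diet ratio stayed above 0 for 27 of 27 markers under each of these 3 scalings.

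**Figure D4:**
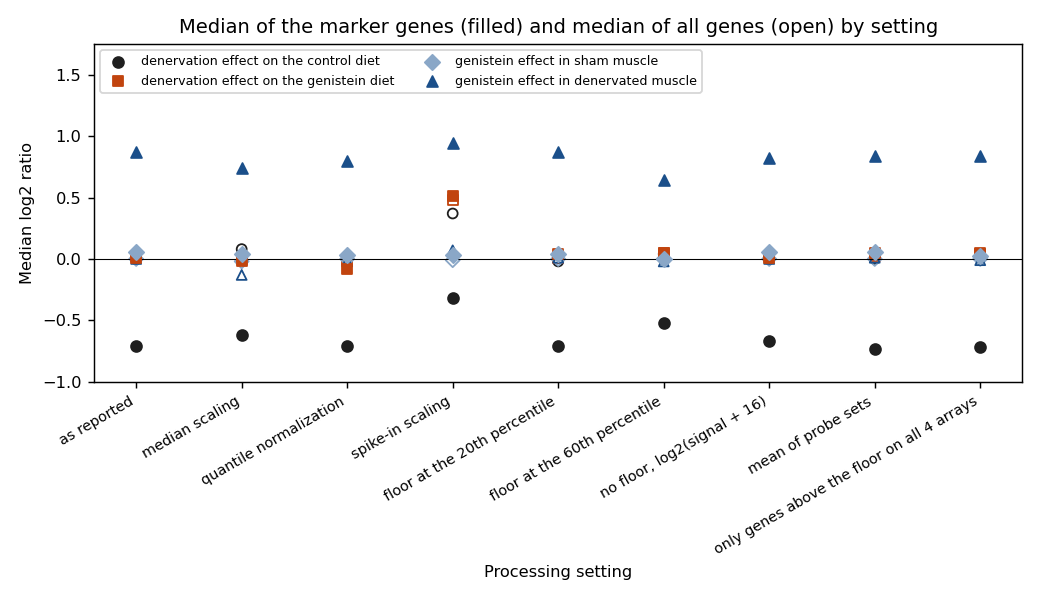
Median log2 ratio of the marker genes (filled) and of all measured genes (open) in the 4 comparisons under the reported processing and 8 alternatives. Diet medians in denervated muscle (triangles) lie between 0.64 and 0.94, and spike-in scaling lifts both denervation comparisons together with all genes.

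Other lists of macrophage, complement and antigen-presenting cell genes had smaller median differences than the markers. Both the markers and these lists were chosen with earlier results known, so this order is a description only. Of 9 further genes of resident-type macrophages, 9 were higher on genistein in denervated muscle, against 50.0% of all genes, with a median log2 ratio of 0.37. One of them, Mertk at 0.04, exceeded the floor on the genistein denervated array and not on the control denervated one, which fixed its sign. The highest ratio was that of Lyve1, a hyaluronan receptor of perivascular macrophages and lymphatic vessels. Lyve1 read 993.3 and 326.7 units on the control diet and 1049.2 and 832.1 on genistein. The median was 0.40 for 5 genes of monocytes and recruited macrophages, 0.40 for 9 partners of Fc receptor and ITAM signalling, 0.31 for 8 genes of the oxidase and leukocyte cytoskeleton, 0.47 for 7 complement genes and 0.63 for 8 class II and dendritic cell genes. Lysosome and phagosome genes, which muscle fibres also express, had a median of 0.05 over 16 genes, unlike the lysosomal markers Ctss and Lyz2.

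Many genes of lymphocytes and granulocytes were near or below the floor. The T cell genes had a median diet ratio of -0.07 in denervated muscle over 7 measured of 14. Below the floor on all arrays were 6 of them, among them Cd3e, Cd3d, Cd8a and Cd8b. Cd5, Cd6 and Cd3g were brighter, at 396.5, 582.9 and 220.4 units on the control sham array. Their diet log2 ratios in denervated muscle were -0.12, -0.18 and -0.02. Only 3 of 7 B cell genes and 2 of 10 NK and cytotoxic genes gave that ratio, and Ms4a1, Cd79b, Ncr1 and Gzmb were below the floor on all arrays. Of 11 neutrophil genes, 9 were below the floor on each array. S100a8 and S100a9 had diet log2 ratios of 1.07 and 0.87 in denervated muscle, as high as the markers' median. Their diet ratios in sham muscle were 0.6 and 0.38, against a marker median of 0.06. Of 28 markers, 7 were also higher there by more than the SD between probe sets, and 2 were lower. Cd163 and Mrc1, at 0.66 and 0.48, were among the 7. For S100a8 and S100a9 the difference of the denervation effects between the diets was 0.47 and 0.49, against a marker median of 0.76.

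Markers of other non-muscle cells were set beside the macrophage markers. The summed signal of the macrophage and leukocyte markers was 23832.7, 14061.1, 24953.5 and 23423.5 units on the control sham, control denervated, genistein sham and genistein denervated arrays. For fibroblast and matrix genes it was 78996.0, 35027.8, 78798.3 and 57124.0, for endothelial genes 6206.6, 3235.6, 6157.2 and 4955.6, and for adipocyte genes 37118.5, 15205.3, 36228.5 and 17087.9. Lpl, which makes up most of the adipocyte sum, read 26937.9, 10425.5, 25688.0 and 9922.6 and did not differ between the diets in denervated muscle as the markers did, with a log2 ratio of -0.07. Median diet ratios in denervated muscle were 0.73 for fibroblast genes (13 of 14 above 0), 0.66 for endothelial genes (11 of 12) and 0.75 for adipocyte genes (6 of 8), next to 0.87 for the markers. Over all genes 50.0% were above 0. Of the 6 adipocyte genes, Cidec and Pparg exceeded the floor on the genistein denervated array and not on the control denervated one, which fixed their sign. With denervation on the control diet the medians of these lists were -1.33, -0.95 and -0.19. On genistein they were -0.61 (12 of 14 below 0), -0.38 (9 of 12 below 0) and 0.78 (5 of 8 above 0), where the markers had a median of 0.01. Of these lists Lep alone was below the floor on all arrays. The part of these other cells in the marker values was not tested. The 10 slow fibre genes, which check the tissue, were all above the floor.

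**Figure D5:**
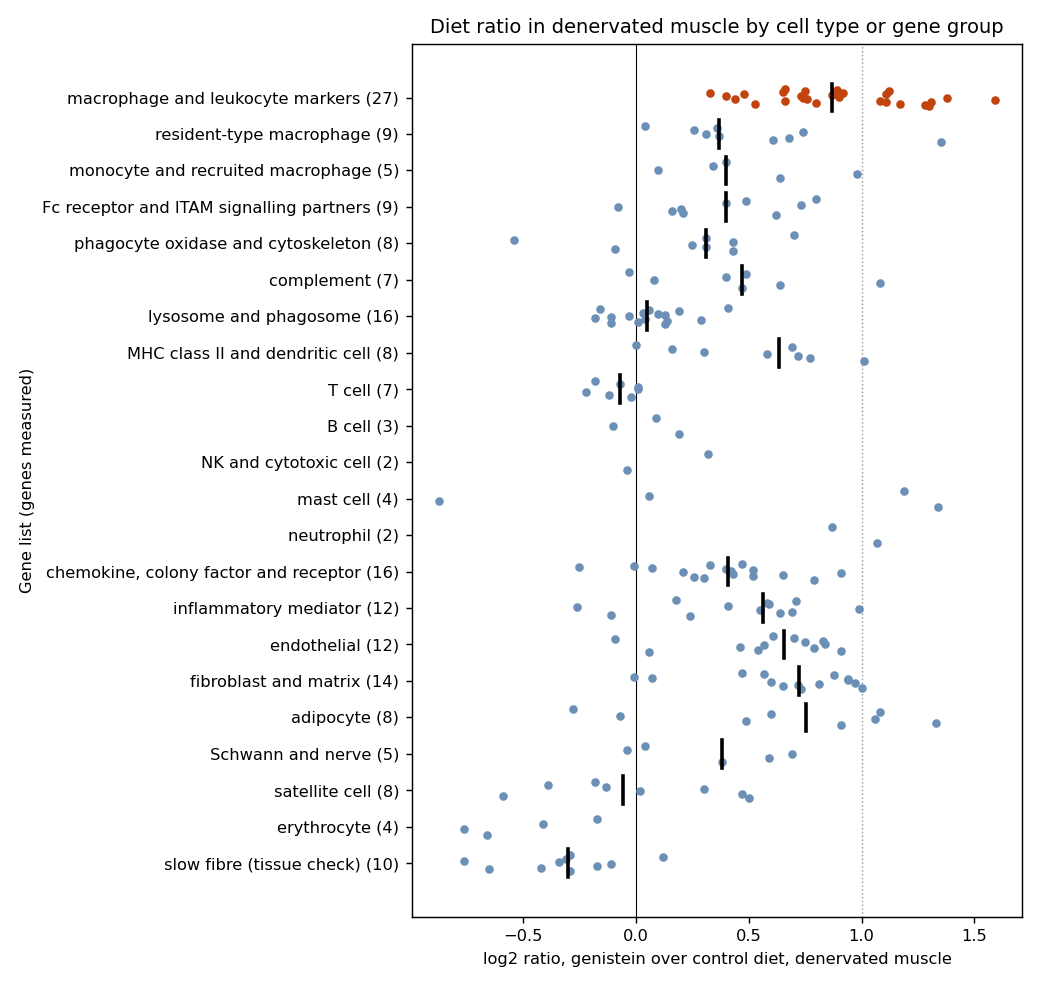
Log2 ratio of genistein over control diet in denervated muscle for each measured gene of the marker list (orange) and of 21 other gene lists (blue), with the number of genes measured in brackets and a bar at the median where a list has at least 5. Marker genes, each by its brightest probe set, lie between 0.33 and 1.59. T cell genes lie around 0, and fibroblast, endothelial and adipocyte genes mostly above 0.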

How the data were processed

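Soleus RNA of 4 pools was read on 4 arrays of 31099 probe sets, and 57 control probe sets were left out. The deposited values are linear signal intensities, 1 per probe set and array, made by the authors with GCOS 1.1 per the submitters' processing notes. No source used here gives the target of the scaling, and the deposited scaling was kept. The platform annotation gave 20826 probe sets 1 symbol, 436 several and 9780 none, and only the first were named. A gene was read from the probe set whose log2 signal was highest on average. Signals under the 40th percentile (78.9 units) were raised to it before log2 ratios, a gene was measured when 1 side exceeded it, and a ratio with 1 side there is a bound. With 1 array per group no test was run, and 2-fold was the fixed size. The number of arrays limits the precision. The naming rule covered every marker, Chrna1, Chrng and Myog as a label check, and the genes with the highest and lowest diet ratio in denervated muscle of each of 21 other lists, of which only some are given. Other genes of those lists were named after their values were seen. The members and lists were chosen with earlier results of these data known. Code (Python 3.11.15, pandas 2.3.3, NumPy 2.4.6) was tested on simulated data. Alternatives changed scaling, floor, filter, probe set rule and motif.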

Additional observations from a re-analysis of the deposited data

Results flagged for a closer look

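For 4 markers the log2 ratio of denervated over sham muscle had opposite signs on the diets, each past the SD between probe sets. The difference, genistein minus control diet, was 1.62 for Cd53 (-1.10 and 0.51 on the control and genistein diets), 1.49 for Fcgr2b (-1.0 and 0.49), 1.45 for Clec4a3 (-0.63 and 0.81) and 0.88 for Coro1a (-0.42 and 0.45). With 1 array per group these differences were not tested. The sizes hold for the deposited scaling. With spike-in scaling the 4 markers kept their signs, but the marker median on the control diet moved from -0.71 to -0.32. Whether each ratio then stayed past the SD was not counted. Opposite signs of this size were seen in 1.45% of 10414 genes, and opposite signs of any size in 13 of 27 markers and 20.8% of genes.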

How the results depend on the processing

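The median diet log2 ratio of the markers in denervated muscle, 0.87 as reported, was 0.74 with arrays scaled to the median, where all genes moved by -0.13, and 0.64 with a floor at the 60th percentile. The count at least 2-fold higher was then 4 at that floor instead of 10. Every measured marker stayed above 0 under each alternative except Itgam, below 0 with a floor at the 20th percentile (28 of 29 above). For denervation on the control diet the median was -0.32 with spike-in scaling and -0.52 with the 60th percentile floor, and the 2-fold count was 1 and 3 instead of 5. On genistein the median was -0.02 with median scaling, -0.08 with quantile normalization and 0.51 with spike-in scaling, and the 2-fold count was 1 with quantile normalization and 1 with the mean of a gene's probe sets. In sham muscle that count was 2 with the 20th percentile floor, 2 with no floor and log2(signal + 16), 0 with the 60th percentile floor and 0 for genes above the floor on all 4 arrays. The difference of the denervation effects had a median of 0.65 with median scaling. The share of windows with the longer motif was 19.0%. Of 861 single-marker values under the alternatives, 785 stayed within the SD between probe sets of the reported value and 76 moved by more. Most of the 76 were denervation ratios under spike-in scaling, where 26 of 27 moved on the control diet and all 27 on genistein. The sign changed in 23, of which 18 were denervation ratios under spike-in scaling (6 on the control diet and 12 on genistein), 3 came with quantile normalization and 2 when probe sets were averaged (Aif1 on the control diet and Cybb on genistein). None of these 23 was past 2-fold as reported, 0 were diet ratios in denervated muscle, and the cause was not tested. No paired analysis was possible because each group had 1 array and the replicate number only names it. Signal near the floor limits Myo1f, Itgam and Fcgr2b.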

Other observations

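Chemokines, colony factors and their receptors had a median diet log2 ratio of 0.41 in denervated muscle, with 14 of 16 genes above 0. Over all genes that share was 50.0%. Ccl5, Ccl7, Cxcl10 and Il34 among the 14 exceeded the floor on the genistein denervated array and not on the control denervated one, which fixed their sign. Ccl21, the chemokine that draws cells into lymphatic vessels, read 359.4 units (sham) and 453.7 units (denervated) on the control diet and 630.6 and 855.0 on genistein, higher on genistein in both muscles. Inflammatory mediators had a median of 0.56 (10 of 12 above 0), while Il6, Tnf, Il10 and Tgfb1 were below the floor on all arrays. The sign was fixed in the same way for Ptgs2 and Nos2 among the 10.

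Cpa3, a mast cell protease, read 308.7 and 121.9 units on the control diet and 286.4 and 308.8 on genistein, lowest on the control denervated array like most macrophage markers. Tpsb2, a mast cell tryptase, was instead lowest on the genistein denervated array, at 24.9 units and below the floor, against 261.4, 144.3 and 289.3 on the control sham, control denervated and genistein sham arrays. Of 4 measured mast cell genes 3 had a diet ratio above 0 in denervated muscle, from -0.87 for Tpsb2 as a bound to 1.34 for Cpa3. Ms4a2 and Cma1, at 0.06 and 1.19, were bounds too, so only Cpa3 exceeded the floor on both denervated arrays. The difference of the denervation effects was above 0 for 2 of 4 genes, with Hdc measured in place of Ms4a2. Schwann and nerve genes had a median diet ratio of 0.38 over 5 genes. Erythrocyte genes went the other way, with 0 of 4 above 0, Slc4a1 as a bound. So did slow fibre genes, with a median of -0.30 and 1 of 10 above 0. In sham muscle the median diet ratios of these 2 lists were also below 0, at -0.52 and -0.15. Satellite cell genes had a median of -0.06 over 8.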
